A study of Mus musculus with 22 samples.

Results

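The mouse genes described here are 55 cell cycle and proliferation genes, taken by symbol from a table of 55011 gene symbols. They comprise 26 genes of G2 phase and mitosis, 17 genes of S phase and DNA replication, 9 cyclins and transcription factors, and 3 inhibitors of cyclin-dependent kinases (CDKs). Every one had counts, all 55 passed the filter on low counts in the diet libraries, and 54 passed it in the transfer libraries, where Cdc6 did not. RNA was sequenced from regulatory T cells (Tregs) of visceral adipose tissue, sorted as Foxp3YFP+ cells from male C57BL/6 Foxp3.Cre-YFP mice at ZT0, when the lights come on, with 1000 cells per library.

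Each of 4 conditions held cells labelled Bmal1 KO and Bmal1 WT. Bmal1, gene symbol Arntl, is a transcription factor at the core of the circadian clock. In the adoptive transfer the Tregs were recovered 9 weeks after they were moved into other mice, which were 20 weeks old when killed, with 2 KO and 2 WT libraries. Lean mice were 18 weeks old, with 3 KO and 3 WT libraries. Mice fed a high-fat diet for 4 weeks were 18 weeks old, also with 3 KO and 3 WT libraries. Mice fed it for 16 weeks, with 3 KO and 3 WT libraries, were 30 weeks old, so that age and length of diet cannot be told apart there. Both high-fat groups had eaten the lean diet for 14 weeks before. KO and WT mice alike carried the Cre recombinase fused to YFP under the control of Foxp3. How Bmal1 was deleted and the host strain of the transfer are not stated in the labels, nor is whether libraries came from separate animals. The p-values therefore measure the spread between these libraries, which may be technical.

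A cell that enters the cycle first raises D-type and then E-type cyclins, which activate CDKs and free the E2F factors from the retinoblastoma proteins. E2F factors switch on the genes of DNA replication, and later B-Myb and FoxM1, together with the MuvB core complex, switch on the genes of G2 and mitosis. In resting cells the same MuvB core forms the repressive DREAM complex, which sits at promoters with a CHR element or E2F sites. Cdkn1a and Cdkn1b encode inhibitors that bind cyclin-CDK complexes, and Cdkn2c encodes an inhibitor of the D-type cyclin kinases. Tregs of visceral fat are a long-lived population that grows with age in lean mice and depends on the receptor for IL-33 and on Pparg.

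The CHR and E2F letters were found at different shares in the promoters of these 2 sets. RefSeq promoter windows on GRCm38.p6, from 250 bases before the annotated start to 50 after it, were found for 45 of the 55 genes. Some genes had several windows (32851 windows for 27025 genes), and a gene was counted when any of its windows held a match. The CHR element, searched as TTTGAA on either strand, was found for 16 of 21 G2/M genes (76.2%) and 2 of 15 S phase genes (13.3%) with a window. It was found for 14.5% of the genes with a window tested in the diet libraries and 20.2% of all 27025 genes with a window. An E2F site, searched as TTTNNCGC on either strand, was found for 2 of 21 G2/M genes (9.52%) and 8 of 15 S phase genes (53.3%), against 10.1% of tested genes and 5.93% of all genes. CCAAT, the site of NF-Y, was found for 18 of 21 G2/M genes (85.7%), 10 of 15 S phase genes (66.7%) and 2 of the 3 inhibitors, against 43.2% of tested genes. For 15 of the 21 G2/M genes both CCAAT and the CHR element were found, not necessarily in the same window. The E-box CACGTG, a site that Bmal1 with its partner Clock can bind, was found for none of the 21 G2/M genes. It was found for 1 of 15 S phase genes (Tyms) and 1 of the 3 inhibitors (Cdkn2c), against 12.2% of tested genes. A match is a description of the letters and not a bound site.

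Below are 5 promoters with these letters and that of Cdkn1a, whose level differed with diet and transfer. Top2a, Kif23 and Cdk1 stand for the G2/M genes and Mcm3 and Mcm6 for the S phase genes. Capitals mark matches to the CHR element or the E2F site on either strand, and each window is written 5′ to 3′ on the strand of its gene. In Cdk1 the first bases of the CHR matches lay 71 and 15 bases before the start and those of the E2F matches 131 and 29 bases before it; in Mcm6 overlapping E2F matches on opposite strands began 110 and 106 bases before the start. The Cdkn1a window held neither.
Top2a, chr11:99024140-99024439, minus strand: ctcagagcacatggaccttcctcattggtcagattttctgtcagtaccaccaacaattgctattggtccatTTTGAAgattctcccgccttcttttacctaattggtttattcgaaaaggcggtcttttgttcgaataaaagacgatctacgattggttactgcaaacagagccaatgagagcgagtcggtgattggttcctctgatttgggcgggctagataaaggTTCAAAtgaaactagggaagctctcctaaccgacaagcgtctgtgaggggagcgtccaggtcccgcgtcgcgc
Kif23, chr9:61946750-61947049, minus strand: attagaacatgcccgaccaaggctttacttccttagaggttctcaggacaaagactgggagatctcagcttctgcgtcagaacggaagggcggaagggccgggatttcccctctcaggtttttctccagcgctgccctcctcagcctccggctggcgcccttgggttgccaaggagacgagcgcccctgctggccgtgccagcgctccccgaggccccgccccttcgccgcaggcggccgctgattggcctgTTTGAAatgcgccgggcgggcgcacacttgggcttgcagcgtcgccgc
Cdk1, chr10:69352863-69353162, minus strand: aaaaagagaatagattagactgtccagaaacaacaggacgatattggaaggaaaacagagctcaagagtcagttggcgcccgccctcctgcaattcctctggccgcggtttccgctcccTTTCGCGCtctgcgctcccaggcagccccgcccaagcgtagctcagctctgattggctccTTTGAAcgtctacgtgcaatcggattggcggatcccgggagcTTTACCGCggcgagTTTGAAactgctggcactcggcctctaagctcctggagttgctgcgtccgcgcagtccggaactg
Mcm3, chr1:20820263-20820562, minus strand: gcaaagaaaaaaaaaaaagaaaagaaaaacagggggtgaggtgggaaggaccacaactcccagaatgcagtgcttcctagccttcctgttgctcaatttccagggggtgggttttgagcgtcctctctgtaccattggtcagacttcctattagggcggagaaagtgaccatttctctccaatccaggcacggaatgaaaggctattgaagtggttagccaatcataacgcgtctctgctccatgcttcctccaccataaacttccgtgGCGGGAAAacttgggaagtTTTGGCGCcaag
Mcm6, chr1:128359656-128359955, minus strand: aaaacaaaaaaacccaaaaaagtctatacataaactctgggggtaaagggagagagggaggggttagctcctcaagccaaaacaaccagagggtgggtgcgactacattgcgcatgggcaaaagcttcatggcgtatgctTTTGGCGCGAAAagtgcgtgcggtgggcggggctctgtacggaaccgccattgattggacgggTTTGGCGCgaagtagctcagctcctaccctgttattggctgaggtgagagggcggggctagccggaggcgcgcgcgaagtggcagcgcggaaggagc
Cdkn1a, chr17:29090729-29091028, plus strand: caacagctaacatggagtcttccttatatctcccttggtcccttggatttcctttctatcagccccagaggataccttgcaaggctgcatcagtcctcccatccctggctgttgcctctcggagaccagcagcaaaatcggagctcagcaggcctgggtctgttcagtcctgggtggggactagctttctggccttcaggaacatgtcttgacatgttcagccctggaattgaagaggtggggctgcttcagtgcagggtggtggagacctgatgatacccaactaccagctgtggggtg

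Total counts per library ran from 4814337 to 5990319 in the transfer libraries and from 1955940 to 3467019 in the diet libraries, so the 3 counts that a gene at 0 could hide correspond to 0.542 to 0.662 and 0.842 to 1.60 CPM. Levels are given as CPM, a library's counts scaled to a common total, after TMM scaling over all 22 libraries. The labels were checked against clock genes: Nr1d1, a direct target of Bmal1, averaged 2.13, 2.74, 1.32 and 1.13 CPM in KO libraries of lean, 4-week, 16-week and transfer mice, against 36.9, 27.5, 22.3 and 88.2 CPM in WT libraries. Arntl itself had an average log2 fold change of 0.22 ± 0.10 (KO minus WT over the 3 diets, edgeR adjusted p = 0.652), and a count over the whole gene does not check a deletion whose position is not given. Treg markers were present throughout, with 6 of 6 markers counted in every group and summed levels of 3841 to 5734 CPM. Of the 2 markers of cytotoxic T cells, Cd8a was at 0 in all groups but KO transfer, while Cd8b1 had counts in every group. Their summed level per library ran from 8.52 CPM in KO transfer to 37.6 CPM in WT 4-week libraries. The library labelled KO 16-week 1 stood apart in stromal and adipocyte markers, with sums of 117 and 53.3 CPM, against at most 11.3 and 11.4 CPM in the other 21 libraries. In the GENCODE annotation of the mouse build mm10, exons of 20 of the 55 genes overlap those of another gene, among them Ccna2 with Exosc9, Kif20a with Cdc23, Nusap1 with Oip5, Mcm7 with Cops6, Ccnd3 with Bysl, Ccne2 with Ints8, Ccnd2 with Gm43126 and 9330179D12Rik, and Cdkn1a with AC167363.2. The library kit does not mark the strand, so reads from such overlaps cannot be told apart.

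Cell cycle genes varied widely between libraries of the same group, and they varied together. The summed level of the 26 G2/M genes was 226 and 332 CPM in KO transfer libraries and 165 and 264 CPM in WT transfer libraries, 457, 738 and 380 CPM in KO lean libraries and 518, 441 and 625 CPM in WT lean libraries. At 4 weeks of high-fat diet it was 924, 330 and 510 CPM in KO and 610, 607 and 258 CPM in WT libraries, and at 16 weeks 923, 631 and 701 CPM in KO and 429, 341 and 492 CPM in WT libraries. The groups overlapped in lean and 4-week mice and after transfer, and did not overlap at 16 weeks. In the KO 4-week group the highest library exceeded the lowest 2.80-fold, and in the WT 4-week group 2.36-fold.

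These far libraries were far across the list and not through a few genes, though the sums were made of the same genes. How often each library was highest or lowest over all genes was not computed. KO 4-week library 1 had the highest level of its group in 25 of 26 G2/M genes and 15 of 17 S phase genes, and WT 4-week library 3 had the lowest in 25 of 26 and 15 of 17. KO lean library 2 was highest in 23 of 26 and 15 of 17. KO 16-week library 1 was highest in 19 of 26 and 16 of 17, and WT 16-week library 1 was lowest in 17 of 17 S phase genes but in only 10 of 26 G2/M genes. The median SD within groups on the log2(CPM + 2) scale was 0.65 for the 26 G2/M genes, against 0.34 for the 5958 genes within the same range of mean CPM. It was 0.35 for S phase genes (0.27 for genes in their range), 0.51 for the cyclins and factors (0.28) and 0.23 for the inhibitors (0.25). The genes compared share only the limits of the range, which for the cyclins and factors was 4.01 to 1071 CPM, and not the distribution of levels within it. Counting error at low counts may thus differ between the sets, and its part was not tested.

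**Figure D1:**
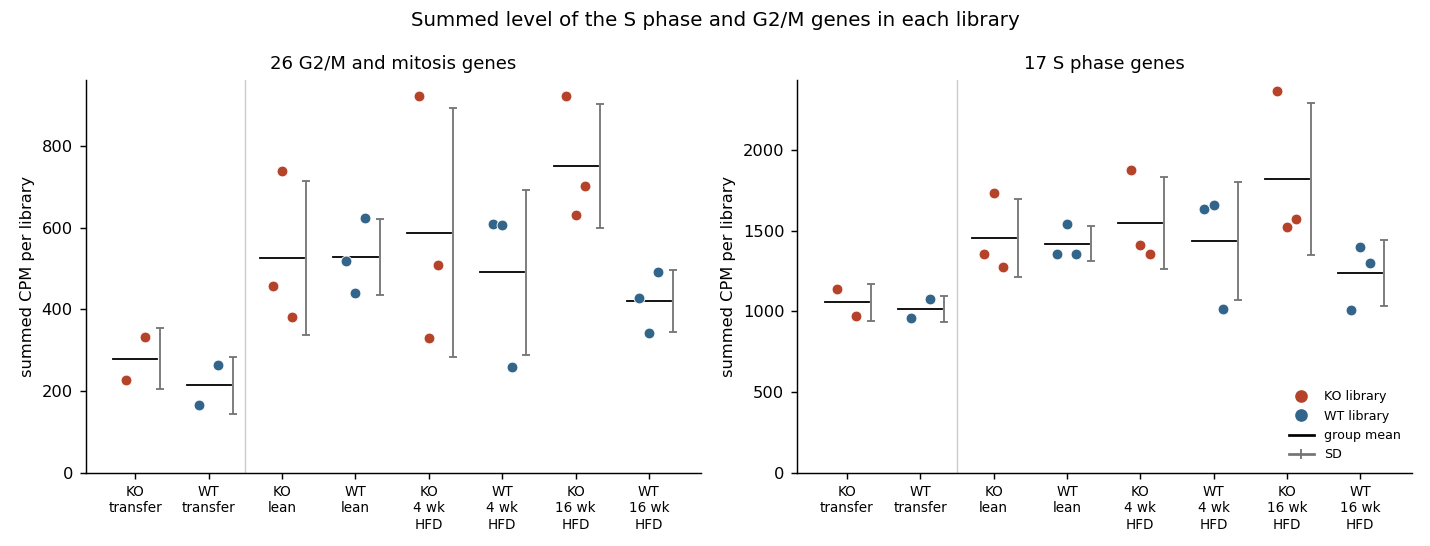
Summed CPM of the 26 G2/M genes (left) and the 17 S phase genes (right) in each of the 22 libraries; points are libraries, black lines group means and grey bars the SD. In both panels the 3 KO libraries at 16 weeks of high-fat diet lie above the 3 WT libraries, and the 4 transfer libraries lie at or near the bottom.

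The summed level of the S phase genes varied less in proportion than that of the G2/M genes in each group but KO 16-week, where its highest value was 1.55 times its lowest, against 1.46 times for the G2/M sum. It was 1137 and 972 CPM in KO transfer libraries and 959 and 1073 CPM in WT transfer libraries, 1357, 1731 and 1275 CPM in KO lean and 1356, 1543 and 1355 CPM in WT lean libraries. At 4 weeks it was 1874, 1413 and 1352 CPM in KO and 1633, 1659 and 1015 CPM in WT libraries, and at 16 weeks 2363, 1520 and 1572 CPM in KO and 1006, 1400 and 1300 CPM in WT libraries. The G2/M sum divided by the S phase sum averaged 0.417 ± 0.0278 in KO and 0.350 ± 0.0947 in WT libraries at 16 weeks, and 0.354 ± 0.0657 in KO and 0.377 ± 0.0878 in WT lean libraries (SD, n = 3 each).

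**Figure D2:**
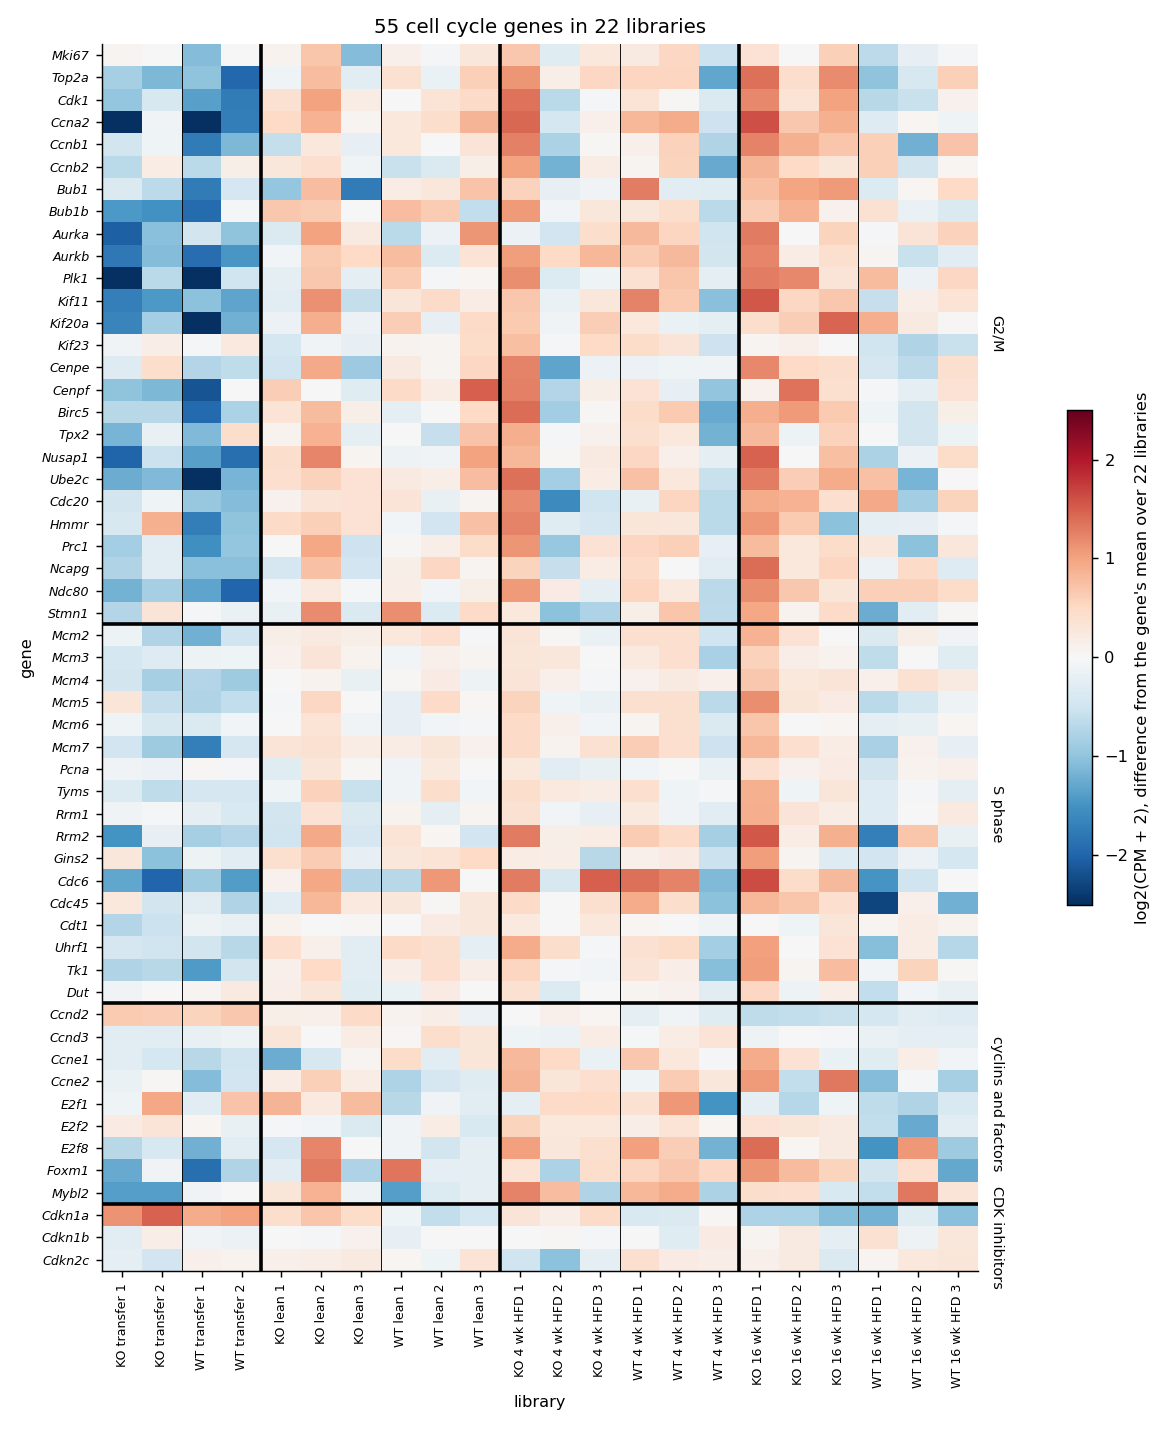
Level of each of the 55 genes (rows, grouped by role) in each of the 22 libraries (columns), as log2(CPM + 2) minus the gene's mean over all libraries; red is higher and blue lower. Columns of KO 4-week library 1 and KO 16-week library 1 are red over most G2/M and S phase rows, and the 4 transfer columns are blue over most G2/M rows, while the Cdkn1a row runs the other way.

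The first comparison asked whether loss of Bmal1 in Tregs altered these genes. At 16 weeks of high-fat diet most of them were higher in KO libraries, though none passed the test over all genes. The G2/M sum averaged 752 ± 152 CPM in KO libraries and 421 ± 76.0 CPM in WT libraries, 1.79-fold higher in KO. The S phase sum averaged 1818 ± 472 CPM in KO libraries and 1235 ± 205 CPM in WT libraries, 1.47-fold higher in KO (SD, n = 3 each). All 26 G2/M genes and 16 of 17 S phase genes had positive log2 fold changes, with medians of 0.80 and 0.58, while the median over the 11698 genes tested was 0.00 and 50.3% were positive. In bulk RNA a larger share of cycling cells and more of these transcripts per cell cannot be told apart. The edgeR quasi-likelihood test with Benjamini-Hochberg adjustment called 0 of 55 genes at an adjusted p under 0.05, beside 0.0427% of all genes, and DESeq2 called 1 (E2f2), beside 0.402% of the genes it tested. With no filter on low counts edgeR called 12, all higher, beside 0.187% of the 41746 genes then tested called higher and 0.838% lower. At an unadjusted p under 0.05, 23 of the 55 were higher and 1 lower, beside 3.16% of all genes higher and 5.98% lower. KO and WT libraries did not overlap for 19 of the 55: 18 were higher in KO (10 G2/M, 5 S phase and 3 cyclins and factors), beside 6.67% of all genes, and 1, Ccnd2, was lower, beside 7.58%.

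Several measured values moved with this difference. Leaving out KO 16-week library 1, the one with stromal and adipocyte RNA, left 9 genes at an unadjusted p under 0.05. The medians were then 0.62 for G2/M and 0.31 for S phase genes, and leaving out WT 16-week library 1 left 11 genes. For these fits the share of all genes at that threshold was not computed, nor were the 9 and 11 split by direction, so they cannot be set against a background. The summed level of 5 B cell markers was 782 to 1245 CPM in KO and 382 to 944 CPM in WT 16-week libraries, that of 4 endothelial markers 116 to 196 and 50.4 to 160 CPM, and that of 4 adipocyte markers 10.1 to 53.3 and 1.71 to 7.86 CPM. The sum of 6 NK and cytotoxic markers was lower in KO with no overlap, at 131 to 149 CPM, against 172 to 723 CPM in WT, and the B cell and endothelial sums overlapped. Lep, an adipocyte marker, was at 0 in both groups, and every endothelial marker had counts in both. Their part in the difference was not tested.

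Among the G2/M genes Cdk1, the kinase that drives entry into mitosis, had the largest fitted difference at 16 weeks. Cdk1 measured 7.54 and 12.1 CPM in KO transfer and 5.30 and 3.61 CPM in WT transfer libraries, and 22.4, 35.6 and 19.3 CPM in KO lean and 16.96, 21.7 and 24.2 CPM in WT lean libraries. On high-fat diet Cdk1 stood at 46.3, 9.73 and 16.2 CPM in KO and 21.9, 17.2 and 12.5 CPM in WT libraries at 4 weeks, and at 41.02, 21.7 and 35.9 CPM in KO and 9.55, 10.7 and 18.2 CPM in WT libraries at 16 weeks. All 3 KO libraries at 16 weeks exceeded the WT libraries, with a log2 fold change of 1.37 ± 0.43 (standard error) and an edgeR adjusted p of 0.311. Ccna2, cyclin A, which partners CDKs through S phase and G2, came next. For Ccna2, transfer libraries held 0 and 19.5 CPM in KO and 1.10 and 4.88 CPM in WT, and lean libraries 30.4, 39.9 and 22.05 CPM in KO and 25.4, 28.8 and 39.4 CPM in WT. High-fat libraries of Ccna2 held 59.5, 14.9 and 23.1 CPM in KO and 38.8, 41.5 and 14.1 CPM in WT at 4 weeks and 68.01, 34.6 and 40.4 CPM in KO and 16.3, 21.6 and 19.2 CPM in WT at 16 weeks. Its KO 16-week libraries also lay above the WT ones (log2 fold change 1.32 ± 0.42, edgeR adjusted p = 0.311), and 1 KO transfer library had no count.

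Mki67 encodes the Ki-67 protein that coats mitotic chromosomes and is the common stain for cycling cells. Mki67 was at 50.4 and 48.1 CPM in KO and 21.4 and 48.2 CPM in WT transfer libraries and at 50.96, 78.7 and 21.6 CPM in KO and 52.3, 45.98 and 58.9 CPM in WT lean libraries. Mki67 was at 77.9, 38.3 and 58.1 CPM in KO and 56.2, 69.7 and 32.1 CPM in WT 4-week libraries and at 61.9, 48.3 and 73.03 CPM in KO and 29.5, 41.1 and 46.99 CPM in WT 16-week libraries. KO exceeded WT in every 16-week library, with a log2 fold change of 0.64 ± 0.34 and an edgeR adjusted p of 0.607. Top2a, the topoisomerase that untangles replicated DNA, has the CHR matches printed above. Top2a measured 25.8 and 20.6 CPM in KO transfer and 22.5 and 10.7 CPM in WT transfer libraries, and 43.99, 82.97 and 39.05 CPM in KO lean and 62.7, 42.2 and 72.7 CPM in WT lean libraries. On high-fat diet Top2a stood at 104, 52.9 and 69.3 CPM in KO and 69.8, 69.7 and 18.1 CPM in WT libraries at 4 weeks, and at 126, 65.4 and 109.9 CPM in KO and 22.7, 35.8 and 73.1 CPM in WT libraries at 16 weeks. At 16 weeks WT library 3 reached above the lowest KO library, and the log2 fold change was 1.20 ± 0.43 (edgeR adjusted p = 0.364). Kif23, a kinesin of the central spindle that serves cytokinesis, has a CHR match 2 bases after its start. For Kif23, transfer libraries held 29.3 and 35.2 CPM in KO and 30.2 and 37.2 CPM in WT, and lean libraries 22.4, 29.3 and 26.6 CPM in KO and 32.98, 32.6 and 43.2 CPM in WT. High-fat libraries of Kif23 held 53.6, 29.8 and 44.4 CPM in KO and 43.8, 39.2 and 21.1 CPM in WT at 4 weeks and 32.7, 34.2 and 30.97 CPM in KO and 21.3, 17.6 and 20.6 CPM in WT at 16 weeks. KO and WT did not overlap at 16 weeks, where KO was higher by 0.71 ± 0.25 (log2, edgeR adjusted p = 0.358), nor in lean mice, where KO was lower (-0.48 ± 0.26, adjusted p = 0.741).

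Values per library follow for Ccnb1, Cenpf and Hmmr. Ccnb1, cyclin B1, is the partner of Cdk1 at the entry into mitosis. Ccnb1 was at 6.68 and 9.08 CPM in KO and 1.54 and 3.43 CPM in WT transfer libraries and at 5.87, 12.2 and 8.27 CPM in KO and 12.3, 10.03 and 12.8 CPM in WT lean libraries. Ccnb1 was at 26.5, 4.86 and 10.1 CPM in KO and 10.9, 15.7 and 5.02 CPM in WT 4-week libraries and at 25.9, 20.1 and 17.3 CPM in KO and 16.01, 3.14 and 17.5 CPM in WT 16-week libraries. Its 16-week groups overlapped (log2 fold change 0.79 ± 0.53, edgeR adjusted p = 0.752). Cenpf encodes a kinetochore protein that accumulates in G2. Cenpf measured 3.45 and 3.03 CPM in KO transfer and 0.441 and 9.03 CPM in WT transfer libraries, and 14.7, 9.04 and 6.89 CPM in KO lean and 13.2, 10.4 and 28.97 CPM in WT lean libraries. On high-fat diet Cenpf stood at 24.3, 4.54 and 10.1 CPM in KO and 12.1, 7.44 and 3.51 CPM in WT libraries at 4 weeks, and at 9.72, 25.8 and 12.4 CPM in KO and 8.71, 7.22 and 12.004 CPM in WT libraries at 16 weeks. Its KO minus WT difference at 4 weeks was 0.72 ± 0.56 (log2, edgeR adjusted p = 0.999) and -0.10 without KO 4-week library 1. Hmmr, a microtubule-binding protein of the spindle, ranged over few counts. For Hmmr, transfer libraries held 4.09 and 12.9 CPM in KO and 0.441 and 1.99 CPM in WT, and lean libraries 9.17, 10.1 and 8.27 CPM in KO and 5.65, 3.76 and 11.4 CPM in WT. High-fat libraries of Hmmr held 16.9, 4.54 and 3.97 CPM in KO and 7.92, 7.83 and 3.01 CPM in WT at 4 weeks and 15.1, 10.6 and 1.96 CPM in KO and 4.77, 5.02 and 5.83 CPM in WT at 16 weeks. Both KO transfer libraries lay above both WT ones, by 2.73 ± 0.94 (log2, edgeR adjusted p = 0.673).

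Of the 17 S phase genes none passed the test at 16 weeks, where the smallest adjusted p of edgeR among them was 0.243, and 5 had no overlap between KO and WT libraries. Mcm2 to Mcm7 encode the hexamer that unwinds DNA at the replication fork, and Mcm5 had the largest fitted difference among these subunits at 16 weeks. Mcm5 was at 128 and 67.6 CPM in KO and 60.7 and 66.5 CPM in WT transfer libraries and at 101, 148 and 104 CPM in KO and 89.998, 145 and 106 CPM in WT lean libraries. Mcm5 was at 154, 95.7 and 92.1 CPM in KO and 138, 137 and 63.7 CPM in WT 4-week libraries and at 233, 128 and 120.0 CPM in KO and 64.03, 75.6 and 94.7 CPM in WT 16-week libraries. The KO 16-week libraries lay above the WT ones, the lowest of them at 120 CPM, and the log2 fold change was 1.04 ± 0.29 (edgeR adjusted p = 0.243). Mcm7 measured 58.8 and 43.5 CPM in KO transfer and 24.1 and 60.9 CPM in WT transfer libraries, and 104, 108 and 94.2 CPM in KO lean and 94.2, 102 and 88.8 CPM in WT lean libraries. On high-fat diet Mcm7 stood at 116, 87.9 and 109 CPM in KO and 127, 112 and 57.2 CPM in WT libraries at 4 weeks, and at 149, 112 and 93.9 CPM in KO and 46.3, 89.4 and 71.3 CPM in WT libraries at 16 weeks. Mcm7 too was above WT in each KO 16-week library (0.78 ± 0.25, edgeR adjusted p = 0.311). For Mcm3, transfer libraries held 107 and 116 CPM in KO and 134 and 136 CPM in WT, and lean libraries 158, 183 and 157 CPM in KO and 139, 161 and 154 CPM in WT. High-fat libraries of Mcm3 held 181, 179 and 146 CPM in KO and 173, 196 and 82.3 CPM in WT at 4 weeks and 219.8, 165 and 155 CPM in KO and 93.5, 147 and 119 CPM in WT at 16 weeks. KO libraries exceeded WT at 16 weeks for Mcm3, by 0.58 ± 0.22 (log2, edgeR adjusted p = 0.403).

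Mcm6, another subunit, has overlapping E2F matches in the window above. Mcm6 was at 251 and 206 CPM in KO and 210.1 and 258 CPM in WT transfer libraries and at 270.2, 344 and 256 CPM in KO and 234, 258 and 266 CPM in WT lean libraries. Mcm6 was at 379, 296 and 259 CPM in KO and 284, 357 and 212 CPM in WT 4-week libraries and at 438, 270.1 and 281 CPM in KO and 228, 238 and 281 CPM in WT 16-week libraries. Its groups overlapped at 16 weeks (log2 fold change 0.40 ± 0.19, edgeR adjusted p = 0.549), where WT library 3 lay between the lower KO libraries. Uhrf1 encodes the protein that reads hemimethylated DNA behind the fork. Uhrf1 measured 29.5 and 27.8 CPM in KO transfer and 28.7 and 24.2 CPM in WT transfer libraries, and 54.6, 44.1 and 33.1 CPM in KO lean and 56.5, 53.9 and 33.7 CPM in WT lean libraries. On high-fat diet Uhrf1 stood at 78.3, 55.1 and 39.4 CPM in KO and 53.2, 55.99 and 21.6 CPM in WT libraries at 4 weeks, and at 83.8, 40.7 and 52.5 CPM in KO and 18.3, 45.8 and 23.7 CPM in WT libraries at 16 weeks. WT library 2 came between the KO libraries at 16 weeks, and the log2 fold change was 1.01 ± 0.37 (edgeR adjusted p = 0.376). The widest fitted differences among S phase genes belonged to Cdc6, which loads the helicase (2.04 ± 0.76), and Cdc45, a subunit of the active helicase (1.65 ± 0.52), both with 3 KO libraries above 3 WT libraries and edgeR adjusted p-values of 0.382 and 0.311. Cdt1 was the one S phase gene with a negative difference at 16 weeks, -0.04 ± 0.14.

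Of the factors upstream, E2f2, an activating E2F, had the smallest p of the 55 genes at 16 weeks. For E2f2, transfer libraries held 37.5 and 41.1 CPM in KO and 33.3 and 27.997 CPM in WT, and lean libraries 31.2, 30.8 and 24.8 CPM in KO and 30.2, 36.8 and 24.2 CPM in WT. High-fat libraries of E2f2 held 48.5, 38.9 and 38.999 CPM in KO and 36.6, 41.5 and 33.6 CPM in WT at 4 weeks and 41.7, 40.3 and 38.1 CPM in KO and 20.5, 12.2 and 26.1 CPM in WT at 16 weeks. All 3 KO libraries at 16 weeks were above all 3 WT libraries, with a log2 fold change of 1.03 ± 0.23, an edgeR adjusted p of 0.132 and a DESeq2 adjusted p of 0.0201. Ccne2, cyclin E2, acts at the G1 to S transition. Ccne2 was at 3.88 and 4.73 CPM in KO and 1.10 and 2.71 CPM in WT transfer libraries and at 5.50, 7.98 and 5.51 CPM in KO and 1.88, 2.93 and 3.32 CPM in WT lean libraries. Ccne2 was at 9.92, 6.16 and 6.86 CPM in KO and 4.15, 8.22 and 6.02 CPM in WT 4-week libraries and at 11.9, 2.28 and 14.3 CPM in KO and 1.12, 4.39 and 1.71 CPM in WT 16-week libraries. Its KO and WT libraries overlapped at 16 weeks through KO library 2, although the fitted log2 fold change was 1.97 ± 0.59 (edgeR adjusted p = 0.281), and in lean mice the 3 KO libraries lay above the 3 WT ones (1.20 ± 0.63, adjusted p = 0.741). Ccne1, cyclin E1, showed no such order in lean mice, though both KO transfer libraries lay above both WT ones. Ccne1 measured 8.40 and 7.19 CPM in KO transfer and 5.74 and 6.86 CPM in WT transfer libraries, and 3.30, 7.45 and 11.02 CPM in KO lean and 15.1, 8.36 and 13.3 CPM in WT lean libraries. On high-fat diet Ccne1 stood at 19.8, 15.6 and 9.03 CPM in KO and 17.7, 12.9 and 10.04 CPM in WT libraries at 4 weeks, and at 21.6, 14.1 and 9.13 CPM in KO and 8.14, 11.9 and 9.95 CPM in WT libraries at 16 weeks. Its 16-week difference was 0.57 ± 0.41 (log2, edgeR adjusted p = 0.77).

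E2f1, another activating E2F, and Mybl2, which encodes B-Myb, were counted at low levels. For E2f1, transfer libraries held 4.52 and 11.7 CPM in KO and 3.75 and 9.57 CPM in WT, and lean libraries 10.6, 6.38 and 10.1 CPM in KO and 2.36, 4.60 and 3.80 CPM in WT. High-fat libraries of E2f1 held 4.04, 7.78 and 7.94 CPM in KO and 7.17, 12.9 and 0.502 CPM in WT at 4 weeks and 3.96, 2.28 and 4.56 CPM in KO and 2.53, 2.20 and 3.43 CPM in WT at 16 weeks. E2f1 was higher in all KO than in all WT lean libraries (log2 fold change 1.33 ± 0.64, edgeR adjusted p = 0.69). Mybl2 was at 0 and 0 CPM in KO and 2.87 and 3.25 CPM in WT transfer libraries and at 4.40, 7.45 and 2.76 CPM in KO and 0, 2.09 and 2.37 CPM in WT lean libraries. Mybl2 was at 10.3, 6.81 and 1.08 CPM in KO and 7.17, 7.83 and 1.00 CPM in WT 4-week libraries and at 5.04, 4.94 and 1.96 CPM in KO and 1.40, 10.98 and 4.46 CPM in WT 16-week libraries. Mybl2 had no count in either KO transfer library, so its level in KO was at least 5.04-fold lower than the WT mean of 3.06 CPM, computed against 3 counts in each KO library (edgeR adjusted p = 0.48), while in lean mice it was higher in KO than in WT (1.65 ± 0.97, adjusted p = 0.755).

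In the other conditions the ratios of the KO sums to the WT sums were nearer 1 than at 16 weeks, while single genes such as Cdkn1a in lean mice and Hmmr after transfer differed more there. In lean mice the G2/M sum of KO libraries was 0.994 times and the S phase sum 1.03 times that of WT libraries, and 27 of the 55 genes had positive log2 fold changes. edgeR called 0 of 55 there, beside 0.0427% of all genes, with 2 at an unadjusted p under 0.05 (7.17% of all genes), and DESeq2 called 1 (Cdkn1a), beside 0.215% of the genes it tested. KO and WT libraries did not overlap for 4 higher genes (Ccne2, E2f1, Mybl2 and Cdkn1a) and 1 lower gene (Kif23), beside 6.79% and 6.36% of all genes. At 4 weeks the ratios were 1.20 and 1.08, and 3 genes had an edgeR unadjusted p under 0.05 (4.62% of all genes). Both edgeR and DESeq2 called 0 of 55, beside 0.0684% of all genes for edgeR and 0.0168% of the genes DESeq2 tested. There 2 genes were higher (Ccnd2 and Cdkn1a) and 2 lower (Foxm1 and Cdkn2c) with no overlap, beside 4.59% and 5.05% of all genes. After transfer the ratios were 1.30 and 1.04, and the median log2 fold changes 0.70 for G2/M and 0.08 for S phase genes. There edgeR called 0 of 54, beside 0.171% of all genes, with 4 at an unadjusted p under 0.05 (6.53% of all genes). DESeq2 called 0 of 55, beside 0.42% of the genes it tested. In the transfer, 15 genes were higher and 9 lower in both KO than in both WT libraries, beside 18.8% and 16.8% of all genes, and the G2/M median came to 0.07 without WT transfer library 1 and to 0.22 without KO transfer library 2. Averaged over the 3 diets, 50 of 55 genes had positive differences with a median of 0.25. There edgeR called 0, beside 0.18% of all genes, and DESeq2 called 1, beside 0.245% of the genes it tested. With edgeR 12 had an unadjusted p under 0.05 (7.39% of all genes).

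Of the listed S phase and G2/M genes outside the 55, most were positive at 16 weeks, beside 50.3% of all genes. They were read in the same libraries, between which cell cycle genes varied together, so their signs are not independent of those of the 55. The lists were chosen with earlier results of these data known. Of 40 further S phase genes 35, and of 40 further G2/M genes 39, had positive KO minus WT differences, with medians of 0.38 and 0.67, and of 13 genes of quiescence and IL-2 signalling 2 were positive with a median of -0.16. Of 27 further G1 and checkpoint genes 14 were positive, with a median of 0.01. In none of these lists was a gene called at 16 weeks by edgeR, beside 0.0427% of all genes. At an unadjusted p under 0.05, 7 S phase and 13 G2/M genes were higher, beside 3.16% of all genes. At the same threshold 2 G1 and checkpoint genes were higher and 1 lower. Of the quiescence and IL-2 genes 3 were lower, beside 5.98% of all genes lower. After transfer Btg2, which restrains proliferation, was called lower in KO libraries (log2 fold change -1.37 ± 0.14, edgeR adjusted p = 0.00462). In that comparison edgeR called 0.171% of all genes in either direction.

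**Figure D3:**
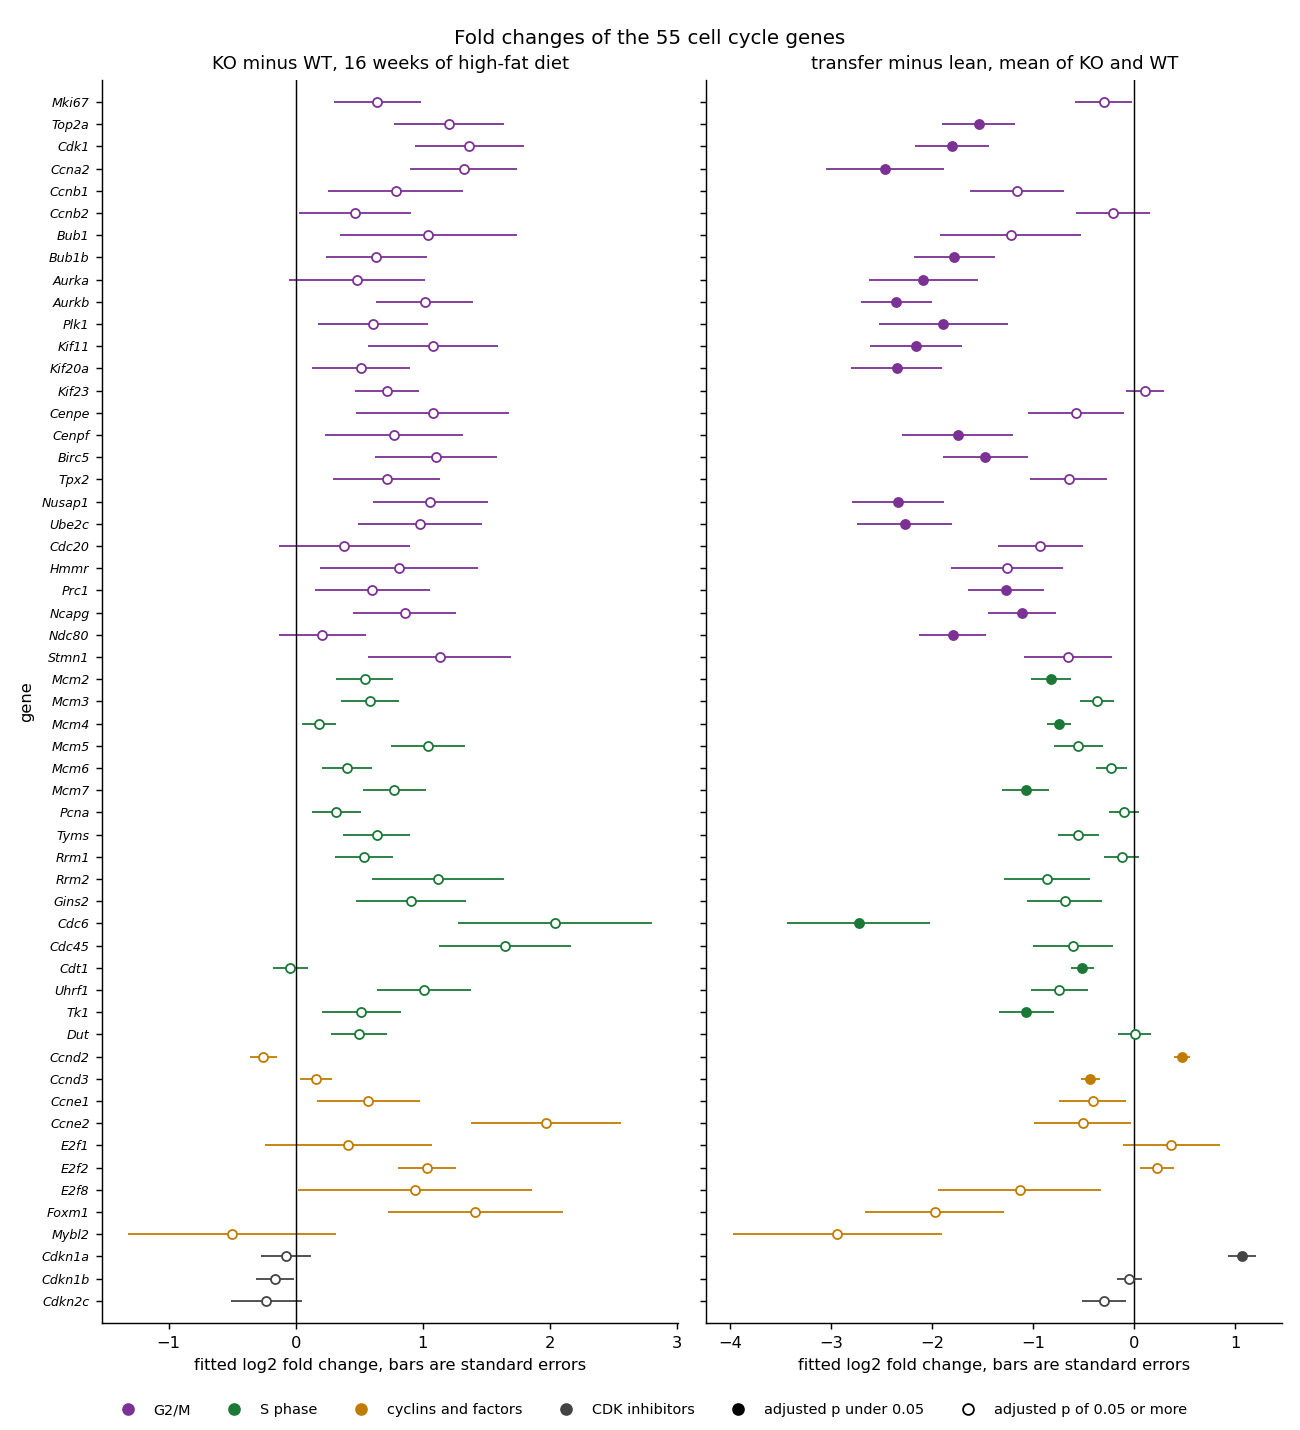
Fitted log2 fold change with its standard error for each of the 55 genes, KO minus WT at 16 weeks of high-fat diet (left) and transfer minus lean (right); colours give the role and filled points an edgeR adjusted p under 0.05. In the left panel 49 of 55 points lie to the right of 0 and none is filled. In the right panel 25 are filled, of which 23 lie to the left of 0.

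The second comparison set the diet groups against each other within each genotype. It uses the same libraries as the comparison of genotypes, so their results are not independent. The 16-week mice were 30 weeks old and the lean and 4-week mice 18 weeks, so differences at 16 weeks may come from age or diet. Among the 55 genes the changes that edgeR called were falls of Ccnd2 and Cdkn1a in KO Tregs after 16 weeks. At 16 weeks against lean DESeq2 called 3 genes in KO and 2 in WT, beside 6.77% and 1.11% of the genes it tested. Ccnd2 (mm10 chr6:127125162-127152193, minus strand) encodes cyclin D2, which carries mitogen signals into the cycle, and Cdkn1a (mm10 chr17:29090976-29100727, plus strand) encodes a CDK inhibitor that p53 induces. Ccnd2 measured 1625 and 1576 CPM in KO transfer and 1519 and 1639 CPM in WT transfer libraries, and 1143, 1119.6 and 1428 CPM in KO lean and 1096, 1151 and 934 CPM in WT lean libraries. On high-fat diet Ccnd2 stood at 1031, 1123 and 1058 CPM in KO and 868, 964 and 830.1 CPM in WT libraries at 4 weeks, and at 665, 671 and 698 CPM in KO and 754, 843 and 824 CPM in WT libraries at 16 weeks. Within KO the 3 libraries at 16 weeks lay below all lean and all 4-week libraries, with log2 fold changes of -0.87 ± 0.11 against lean (edgeR adjusted p = 6.71e-05) and -0.66 ± 0.11 against 4 weeks (adjusted p = 0.00339). The WT 16-week libraries were below the WT lean ones as well (log2 fold change -0.40 ± 0.11, edgeR adjusted p = 0.186).

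For Cdkn1a, transfer libraries held 467 and 599.7 CPM in KO and 406 and 431 CPM in WT, and lean libraries 289, 345 and 294 CPM in KO and 199, 139 and 156 CPM in WT. High-fat libraries of Cdkn1a held 266, 239 and 298 CPM in KO and 163, 166 and 218 CPM in WT at 4 weeks and 124, 123 and 101 CPM in KO and 92.4, 172 and 102 CPM in WT at 16 weeks. In KO the 16-week libraries fell to 101 to 124 CPM, below every lean and 4-week KO library, with log2 fold changes of -1.42 ± 0.20 against lean (edgeR adjusted p = 0.000178) and -1.21 ± 0.19 against 4 weeks (adjusted p = 0.00316). In WT the 16-week group overlapped the lean group (-0.43 ± 0.19, adjusted p = 0.534). Cdkn1a was higher in all KO than in all WT libraries of lean and 4-week mice and after transfer, and overlapped at 16 weeks. The KO minus WT difference in lean mice was 0.91 ± 0.19 with an edgeR adjusted p of 0.14. It passed the threshold in 3 of 12 alternatives: with DESeq2 (0.00822), with no filter on low counts (2.84e-06) and with the lean libraries fitted alone (0.0372). In the other 9 it did not pass, among them all 6 fits without 1 library (edgeR adjusted p 0.0623 to 0.731). The differences between genotypes in the response to 16 weeks were -0.47 ± 0.15 for Ccnd2 and -0.99 ± 0.27 for Cdkn1a, with edgeR adjusted p-values of 0.37 and 0.314.

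**Figure D4:**
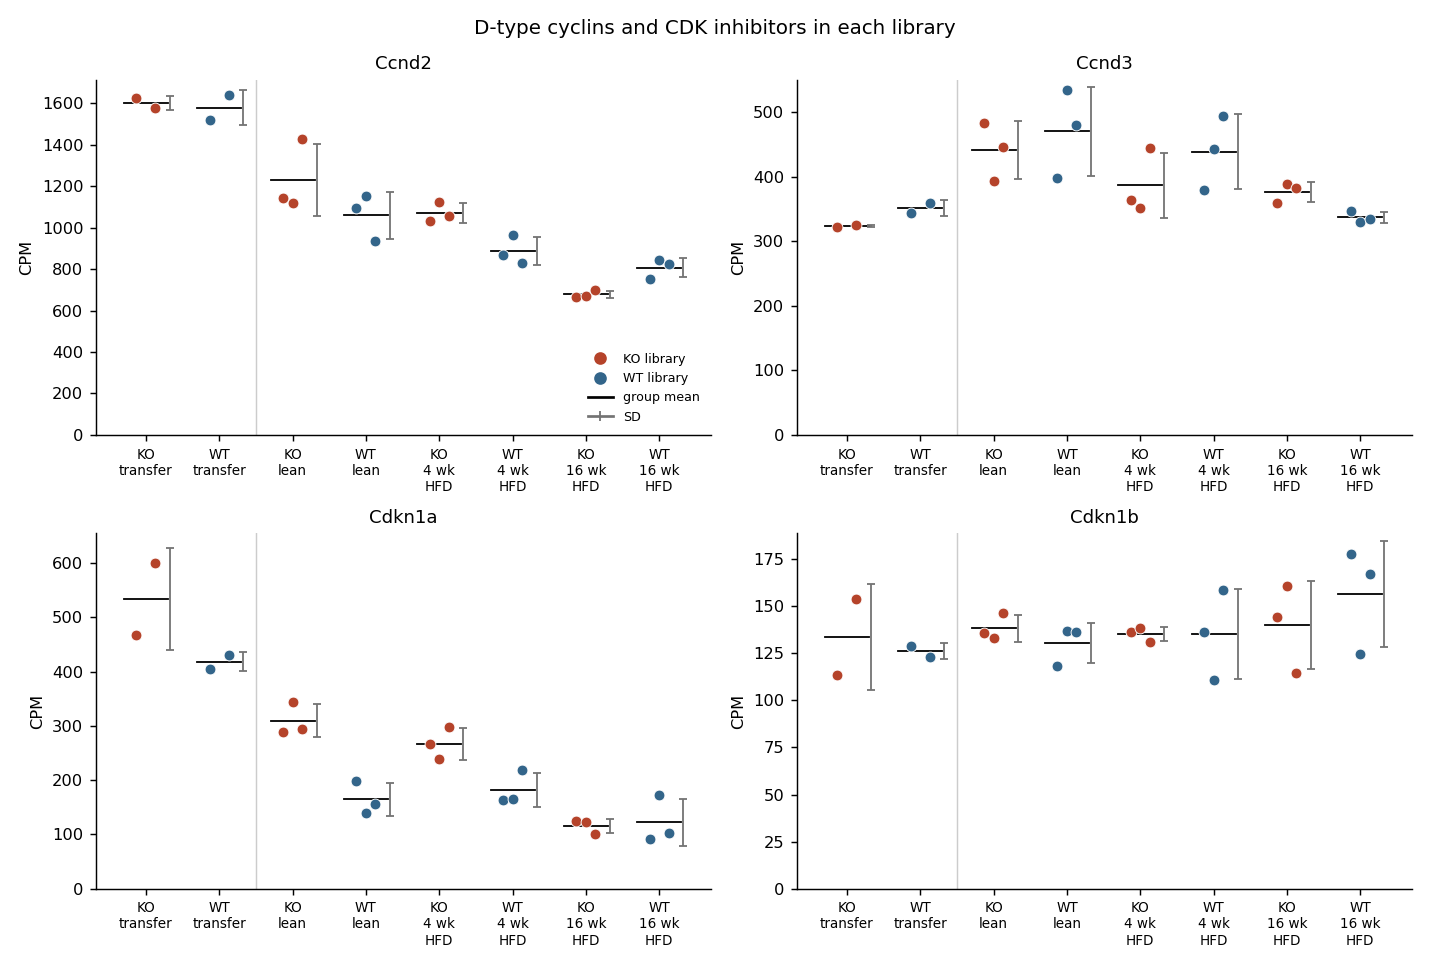
CPM of the D-type cyclins Ccnd2 and Ccnd3 and the CDK inhibitors Cdkn1a and Cdkn1b in each library; points are libraries, black lines group means and grey bars the SD. Ccnd2 and Cdkn1a are highest in the 4 transfer libraries, and in KO they are lowest at 16 weeks of high-fat diet.

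The other CDK inhibitors passed no edgeR test of diet or genotype. Cdkn1b was at 114 and 154 CPM in KO and 129 and 123 CPM in WT transfer libraries and at 136, 133 and 147 CPM in KO and 118, 137 and 136 CPM in WT lean libraries. Cdkn1b was at 136, 138 and 131 CPM in KO and 137, 111 and 159 CPM in WT 4-week libraries and at 144, 161 and 115 CPM in KO and 178, 125 and 167 CPM in WT 16-week libraries. KO and WT libraries of Cdkn1b overlapped in all 4 conditions, as did high-fat and lean libraries of each genotype, and its fitted differences between high-fat and lean diet ran from -0.04 to 0.26. Cdkn2c measured 10.6 and 8.52 CPM in KO transfer and 14.1 and 13.5 CPM in WT transfer libraries, and 13.9, 14.4 and 15.2 CPM in KO lean and 13.2, 11.7 and 16.6 CPM in WT lean libraries. On high-fat diet Cdkn2c stood at 8.45, 5.19 and 10.5 CPM in KO and 17.4, 14.9 and 14.6 CPM in WT libraries at 4 weeks, and at 14.03, 15.2 and 9.46 CPM in KO and 13.5, 15.7 and 16.1 CPM in WT libraries at 16 weeks. Cdkn2c was lower in all KO than in all WT 4-week libraries, with a log2 fold change of -0.95 ± 0.30 and an edgeR adjusted p of 0.958.

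With edgeR, 16 weeks against lean diet in KO gave 0 higher and 2 lower of the 55 genes, beside 2.36% and 3.59% of all genes. Against 4 weeks it gave 0 higher and 2 lower, beside 0.393% and 1.25%. All 17 S phase genes and 25 of 26 G2/M genes had positive KO differences between 16 weeks and lean, with medians of 0.36 and 0.49, and the smallest edgeR adjusted p among them was 0.0546 for Mcm4. In WT, 2 of 17 and 7 of 26 were positive, with medians of -0.32 and -0.39. There edgeR called 0 of 55, beside 0.0855% of all genes, with 6 at an unadjusted p under 0.05 (8.76% of all genes). DESeq2 called 2, beside 1.11% of the genes it tested. WT at 16 against 4 weeks gave 0 calls by edgeR, beside 0% of all genes, and 9 genes at an unadjusted p under 0.05 (7.56%). DESeq2 called 0 as well, beside 0.235% of the genes it tested. At 4 weeks against lean, edgeR and DESeq2 called 0 of 55 in either genotype, beside 0% of all genes for edgeR. Of the genes DESeq2 tested it called 0.228% in KO and 0% in WT. With edgeR 4 genes in KO and 1 in WT had an unadjusted p under 0.05 (7.15% and 5.59% of all genes).

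The difference between genotypes in these responses was tested as an interaction. For 16 weeks against lean it was positive for 25 of 26 G2/M genes and 17 of 17 S phase genes, with medians of 0.84 and 0.64, where the median over all genes was -0.01. edgeR and DESeq2 called 0 of 55, beside 0% of all genes for edgeR and 0.209% of the genes DESeq2 tested. With edgeR 9 of the 55 had an unadjusted p under 0.05 (8.49% of all genes), among them Kif23 (1.19 ± 0.36, edgeR adjusted p = 0.322) and E2f2 (1.10 ± 0.33, adjusted p = 0.319). For 4 weeks against lean 2 genes, and for 16 against 4 weeks 8 genes, had an unadjusted p under 0.05 (4.56% and 6.7% of all genes). Both edgeR and DESeq2 called 0 in each, beside 0% of all genes for edgeR. Of the genes DESeq2 tested it called 0% and 0.0024%.

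Markers also differed between the 16-week and the lean KO libraries, where age and length of diet cannot be told apart. The summed level of 4 adipose Treg markers (Pparg, Il1rl1, Klrg1 and Gata3) was 4147 to 4486 CPM in KO lean, 3910 to 4576 CPM in KO 4-week and 1653 to 2295 CPM in KO 16-week libraries, and edgeR called all 4 lower at 16 weeks against lean. The B cell sum was 344 to 369, 391 to 494 and 782 to 1245 CPM in the same groups, and the endothelial sum 39.4 to 74.8, 82.4 to 114 and 116 to 196 CPM. Of the markers tested at 16 weeks against lean, edgeR called higher 2 of 2 endothelial and 1 of 1 adipocyte markers. It also called higher 1 of 2 B cell and 1 of 4 dendritic cell and class II markers, beside 2.36% of all genes. Called lower were 1 of 3 NK and cytotoxic and 1 of 6 Treg markers, beside 3.59% of all genes. The part of these markers in the falls of Ccnd2 and Cdkn1a was not tested.

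In KO at 16 weeks against lean, edgeR called 2.36% of all genes higher and 3.59% lower. Of the other listed genes, it called 2 of 40 G2/M genes higher in that comparison and 0 of 40 S phase genes. It called 3 of 27 G1 and checkpoint genes lower, and of 13 quiescence and IL-2 genes 4 lower and 1 higher. The 4 with the smallest p were Cenpa, the centromeric histone (1.22 ± 0.16, adjusted p = 0.000129), Btg2 (-0.99 ± 0.14, 0.000243), Socs2, a feedback inhibitor of cytokine signalling (-1.05 ± 0.16, 0.000659), and Il2ra, a receptor chain for IL-2 (-1.13 ± 0.18, 0.000664).

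The third comparison set the transferred Tregs against those of lean mice, whose libraries also serve in the comparisons above. Here the cell cycle genes were lower: the G2/M sum averaged 247 CPM over the 4 transfer libraries and 527 CPM over the 6 lean libraries, with no overlap (165 to 332 CPM against 380 to 738 CPM). The S phase sum averaged 1035 and 1436 CPM, also with no overlap (959 to 1137 CPM against 1275 to 1731 CPM), and the ratio of the sums averaged 0.239 after transfer and 0.365 in lean mice, with overlap. In a fit over all 22 libraries edgeR called 23 of the 55 genes lower and 2 higher, beside 8.81% and 7.35% of the 12523 genes tested. The 23 were 16 of 26 G2/M genes, 6 of 17 S phase genes and Ccnd3, and the 2 were Cdkn1a and Ccnd2. Median log2 fold changes were -1.51 for G2/M, -0.61 for S phase and -0.02 for all genes. Libraries did not overlap for 20 lower and 2 higher genes, beside 5.46% and 6.23% of all genes. Transfer libraries had more counts in total, and the sources used here do not say whether they were made and sequenced together with the diet libraries, so the transfer and any such difference cannot be told apart.

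Fewer genes passed within 1 genotype. With KO libraries alone edgeR called 7 of the 55 genes, 6 of them lower, beside 2.14% of all genes lower and 1.21% higher. With WT libraries alone it called 17, of which 15 were lower, beside 5.84% of all genes lower and 4.63% higher. The difference between these was not tested. Leaving out each library in turn gave 19 to 26 genes, the fewest without WT transfer library 1. Summed B cell markers were 132 to 167 CPM after transfer and 317 to 485 CPM in lean mice, NK and cytotoxic markers 122 to 216 and 236 to 460 CPM, and adipose Treg markers 6396 to 6528 and 2385 to 4486 CPM. Their part in the fall was not tested.

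Aurkb, the kinase of the chromosomal passenger complex, had the smallest p among the genes that fell. For Aurkb, transfer libraries held 2.58 and 5.49 CPM in KO and 2.21 and 3.79 CPM in WT, and lean libraries 13.2, 22.9 and 20.2 CPM in KO and 24.97, 10.4 and 18.05 CPM in WT. High-fat libraries of Aurkb held 30.5, 20.4 and 25.999 CPM in KO and 22.6, 25.8 and 9.54 CPM in WT at 4 weeks and 34.9, 15.96 and 18.9 CPM in KO and 14.6, 8.78 and 10.97 CPM in WT at 16 weeks. Every transfer library was below every lean library, and the log2 fold change was -2.36 ± 0.35 (edgeR adjusted p = 7.72e-05). Ndc80, a kinetochore subunit that grips microtubules, was next among the G2/M genes. Ndc80 was at 4.31 and 6.06 CPM in KO and 3.75 and 1.63 CPM in WT transfer libraries and at 11.7, 14.9 and 11.9 CPM in KO and 14.1, 11.7 and 13.8 CPM in WT lean libraries. Ndc80 was at 27.9, 14.6 and 10.1 CPM in KO and 18.9, 14.9 and 7.03 CPM in WT 4-week libraries and at 29.9, 20.9 and 15.6 CPM in KO and 19.7, 19.8 and 17.8 CPM in WT 16-week libraries. It showed the same separation (-1.80 ± 0.33, edgeR adjusted p = 0.00068). Kif20a, a kinesin needed for cytokinesis, fell by 2.35 on the log2 scale (standard error 0.45, edgeR adjusted p = 0.000948). Kif20a measured 1.94 and 4.92 CPM in KO transfer and 0.221 and 3.43 CPM in WT transfer libraries, and 9.17, 21.3 and 9.19 CPM in KO lean and 16.96, 8.78 and 15.2 CPM in WT lean libraries. On high-fat diet Kif20a stood at 17.6, 9.73 and 16.97 CPM in KO and 12.8, 9.01 and 8.53 CPM in WT libraries at 4 weeks, and at 14.8, 17.1 and 31.95 CPM in KO and 21.3, 12.5 and 10.6 CPM in WT libraries at 16 weeks. The transfer libraries were again below all lean ones. Nusap1, a spindle protein, fell by 2.34 (standard error 0.45, edgeR adjusted p = 0.001). For Nusap1, transfer libraries held 1.51 and 7.76 CPM in KO and 3.53 and 1.81 CPM in WT, and lean libraries 17.2, 30.8 and 12.9 CPM in KO and 10.8, 11.3 and 26.1 CPM in WT. High-fat libraries of Nusap1 held 23.1, 12.3 and 14.4 CPM in KO and 18.1, 13.3 and 10.04 CPM in WT at 4 weeks and 37.1, 12.2 and 21.8 CPM in KO and 6.18, 10.7 and 17.5 CPM in WT at 16 weeks. Cdk1, Top2a and Ccna2, with values above, had log2 fold changes of -1.80, -1.54 and -2.47 (edgeR adjusted p = 0.00135, 0.00497 and 0.00497). Mki67, at -0.30 ± 0.28 (edgeR adjusted p = 0.507), and Kif23, at 0.11 ± 0.19 (adjusted p = 0.754), were not called.

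Mcm4 had the smallest p among the S phase genes. Mcm4 was at 86.6 and 66.6 CPM in KO and 71.5 and 64.3 CPM in WT transfer libraries and at 120.3, 128 and 106 CPM in KO and 123, 139 and 109.7 CPM in WT lean libraries. Mcm4 was at 151, 131 and 118 CPM in KO and 130.1, 141 and 130.5 CPM in WT 4-week libraries and at 192, 145 and 152 CPM in KO and 131, 157 and 141 CPM in WT 16-week libraries. All transfer libraries were below all lean libraries (log2 fold change -0.75 ± 0.12, edgeR adjusted p = 0.00011). Mcm2 measured 113 and 72.7 CPM in KO transfer and 52.96 and 87.1 CPM in WT transfer libraries, and 137, 145 and 136 CPM in KO lean and 149, 166 and 122 CPM in WT lean libraries. On high-fat diet Mcm2 stood at 155, 127 and 110.5 CPM in KO and 163, 163 and 86.8 CPM in WT libraries at 4 weeks, and at 227, 159 and 123 CPM in KO and 95.5, 137 and 116 CPM in WT libraries at 16 weeks. Mcm2 was lower with the same separation (-0.82 ± 0.20, edgeR adjusted p = 0.00577). Cdt1, the licensing factor that brings the helicase to origins, was also lower (-0.51 ± 0.11, edgeR adjusted p = 0.0026). For Cdt1, transfer libraries held 38.8 and 44.9 CPM in KO and 59.8 and 57.3 CPM in WT, and lean libraries 69.7, 64.9 and 67.1 CPM in KO and 65.97, 76.1 and 80.7 CPM in WT. High-fat libraries of Cdt1 held 77.9, 66.5 and 79.4 CPM in KO and 68.3, 64.997 and 61.7 CPM in WT at 4 weeks and 65.8, 60.8 and 81.2 CPM in KO and 68.8, 74.98 and 70.3 CPM in WT at 16 weeks. Mcm7 was lower as well (log2 fold change -1.08 ± 0.23, edgeR adjusted p = 0.00261), while Mcm6 at -0.23 ± 0.15 (adjusted p = 0.328), Pcna, the sliding clamp of the polymerases, at -0.10 ± 0.14 (0.694) and Dut, which removes dUTP, at 0.01 ± 0.16 (0.989) were not called.

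The D-type cyclins went apart after transfer. Ccnd2 was higher by 0.48 ± 0.08 (edgeR adjusted p = 0.000214) with all transfer libraries, from 1519 to 1639 CPM, above all lean ones. Ccnd3, cyclin D3, was lower (log2 fold change -0.43 ± 0.10, edgeR adjusted p = 0.00289). Ccnd3 was at 322 and 325 CPM in KO and 343 and 360.2 CPM in WT transfer libraries and at 483, 394 and 447 CPM in KO and 398, 535 and 480.2 CPM in WT lean libraries. Ccnd3 was at 365, 351 and 445 CPM in KO and 379, 444 and 495 CPM in WT 4-week libraries and at 359, 389 and 382 CPM in KO and 347, 331 and 335 CPM in WT 16-week libraries. Its 4 transfer libraries lay below the 6 lean libraries, and at 16 weeks of high-fat diet its KO libraries lay above its WT libraries (0.16 ± 0.13, adjusted p = 0.803). Cdkn1a was higher after transfer by 1.07 ± 0.14 (edgeR adjusted p = 1.94e-05), with 406 to 599.7 CPM, against 139 to 345 CPM in lean mice. Cdkn1b and Cdkn2c, at -0.05 ± 0.12 and -0.30 ± 0.22, were not called (adjusted p = 0.828 and 0.385).

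Beside the 8.81% of all genes called lower and 7.35% called higher, edgeR called 9 of 40 further S phase genes and 15 of 40 further G2/M genes lower after transfer and none of either list higher, while of 28 G1 and checkpoint genes 3 were higher and 1 lower, and of 13 quiescence and IL-2 genes 5 were higher and 2 lower. The 4 with the smallest p were Btg2 (1.24 ± 0.11, adjusted p = 9.03e-08), Socs1, a feedback inhibitor of cytokine signalling (0.91 ± 0.10, 1.92e-06), Il2ra (1.17 ± 0.13, 2.53e-06) and Dnmt1, the maintenance DNA methyltransferase (-1.09 ± 0.15, 1.87e-05).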

How the data were processed

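The deposited table holds raw read counts per gene for 22 libraries, with no normalization by the authors; the submitters' processing notes name STAR 2.7.3a, featureCounts and the build mm10, and no version or strand setting of the counter was found in them. Per the labels' protocols, cDNA was made with an oligo(dT) primer, amplified by PCR and cut with Nextera XT, so counts include PCR copies and floors cover counting error only. Genes were filtered with filterByExpr (minimum count 10), scaled by TMM and tested with edgeR 4.0.16 (quasi-likelihood, R 4.3.3, limma 3.58.1), with Benjamini-Hochberg adjustment over all genes tested and a threshold of 0.05. The 18 diet libraries were fitted together, the 4 transfer libraries alone, and all 22 for transfer against lean. The scripts were tested on simulated counts. DESeq2 1.42.0, no filter, other fits and each library left out were alternatives. The members and lists were chosen with earlier results of these data known. Values in every library are given for 30 genes: those called by edgeR (the 8 with the smallest p where more were), the 4 with the highest mean CPM in each role (all 3 inhibitors), and the 2 with the smallest p per role in each comparison of KO with WT. From the lists of other cell cycle genes up to 4 called genes are named per comparison. Samples sharing a replicate number were checked for shared deviations; correlations ran from -0.0195 to 0.0906, so the numbers were not taken as pairs.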

Additional observations from a re-analysis of the deposited data

How the results depend on the processing

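Over 19 counts and medians, 237 of 254 alternative values stayed within the limits set for a change, and 17 moved. With no filter on low counts, edgeR called 1 of the 55 genes for KO against WT in lean mice, beside 0.323% of all genes then tested. It called 12 at 16 weeks (1.03% of all genes) and 5 averaged over the diets (0.654%). For 16 weeks against lean in KO it called 6 (2.6%), and for 16 against 4 weeks in WT 2 (0.23%). In the interactions of 16 weeks against lean and against 4 weeks it called 4 (0.618%) and 2 (0.505%). DESeq2 called 1 in lean mice (0.215% of the genes it tested), 1 at 16 weeks (0.402%) and 1 averaged over the diets (0.245%). For 16 weeks against lean in WT it called 2 (1.11%). With the groups compared fitted alone, 1 was called in lean mice. Shares of all genes are not given here for that fit, for fits without 1 library or for the replicate block. Transfer against lean gave 7 genes with KO libraries alone (3.35% of all genes), an alternative chosen after seeing the data. Leaving out 1 library at a time gave 2 to 4 genes for 16 weeks against lean in KO (4 without KO lean library 2), 0 to 1 for the average over the diets (1 without WT 16-week library 2), 19 to 26 for transfer against lean, and, for KO against WT after transfer, a G2/M median of 0.073 to 0.86 and an S phase median of -0.05 (without KO transfer library 1; -0.04 without WT transfer library 1) to 0.11, against 0.08 with all libraries. For Cenpf the KO minus WT difference at 4 weeks ran from -0.10 without KO 4-week library 1 to 1.21 without WT 4-week library 1. The cause of these changes was not tested. With the replicate number as a block, 3 genes were called for 16 weeks against lean in KO and 28 for transfer against lean, the 16-week medians were 0.83 (G2/M) and 0.59 (S phase), those after transfer 0.59 and 0.03, and no other count changed. Of 735 alternative values for single genes 716 kept their side of the threshold and direction, 5 lost and 13 gained a call, and 1 turned. Depth limits the genes with few counts: 3 counts were 0.842 to 1.60 CPM in diet libraries.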
